A study of Mus musculus with 6 samples.

Results

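Genes of fatty acid synthesis, storage and oxidation were compared between TuBo cells that over-express p140Cap and mock TuBo cells. The set was defined by name as 42 genes of this metabolism, and all 42 were found by symbol among the 21960 genes of the deposited counts. TuBo is a line of mammary tumor cells derived from the BALB/c-MMTV-NeuT mouse, which carries the activated rat neu oncogene under the MMTV promoter, and both groups share this origin. RNA was sequenced from 3 mock libraries, whose genotype is given as wt, and from 3 p140Cap libraries, from cells transduced with a pBabe-puro retrovirus carrying p140Cap cDNA and selected with puromycin. The p140Cap cells were a pool of clones grown from single cells, so that a difference between the groups cannot be told apart from a difference between the founding cells of those clones and the mock population. The deposited labels call the samples both mice and cell lines, and the TuBo line was taken to be meant. No source used here says whether the replicates came from separate cultures, and p-values then measure only the spread between these libraries.

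Cells make fatty acids from cytosolic acetyl-CoA, which acetyl-CoA carboxylase turns into malonyl-CoA and fatty acid synthase builds into palmitate. Palmitate is activated to acyl-CoA, can then be elongated and desaturated, and is either esterified into the triglycerides of lipid droplets or carried into mitochondria and oxidized. Tumor cells are known for active fatty acid synthesis, and lactating mammary epithelium makes triglycerides for milk. Expression is given here as a normalized read count, in CPM, that is, reads scaled to a common library size after TMM adjustment, and differences are log2 fold changes of p140Cap against mock cells with their standard error (SE).

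Srcin1, the gene of p140Cap, was covered by 1192, 509 and 552 reads in mock and by 34371, 36989 and 30546 reads in p140Cap libraries, so the labels and the transduced gene matched in every library. Total reads on genes ranged from 33058719 to 75506562 in mock and from 13770385 to 15364850 in p140Cap libraries, so every mock library was deeper, with a ratio of medians of 2.62. Of 9 mammary epithelial markers, 8 had enough reads for a test, with summed CPM from 6428 to 6967 in mock and from 7191 to 7455 in p140Cap libraries, while Krt19 had at most 5 reads in any library. Of 8 adipocyte markers, none had enough reads for a test and 3 had no read, with sums from 0.0901 to 0.209 CPM in mock and from 0.272 to 0.588 CPM in p140Cap libraries. Sums of the 6 fibroblast markers were 9.93 to 10.5 CPM in mock and 11.3 to 14.1 CPM in p140Cap libraries, with 4 markers at 0 reads. The 5 macrophage and leukocyte markers summed to 2.06 to 2.34 CPM and 3.23 to 4.09 CPM, with 3 at 0 reads, and the 4 endothelial markers to 0.210 to 0.478 CPM and 0.477 to 0.734 CPM, with 1 at 0 reads. Within these lists, Krt7 was lower in p140Cap cells (log2 fold change -0.84), 4 other epithelial markers were higher by up to 0.49, and Col1a1 (0.80), Cd68 (0.83) and Pecam1 (1.25) were higher. The part of these marker differences in the results was not tested. In bulk RNA, fewer cells expressing a gene and less RNA per cell cannot be told apart.

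Of the 42 genes, 39 had enough reads for a test and 34 passed an adjusted p threshold of 0.05 in the quasi-likelihood test of edgeR, with Benjamini-Hochberg adjustment over all 11800 genes tested. Among all genes tested, 71.1% differed, so that a change as such was usual in this comparison. In p140Cap cells, 22 of the 39 were higher and 12 were lower, while 35.2% of all genes were higher and 35.9% were lower. The median log2 fold change of the 39 genes was 0.21 and that of all genes was -0.00. A difference of at least 0.5 log2 units was found for 12 genes (30.8% of the 39), 8 higher and 4 lower, and 30.8% of all genes tested were called with a difference of this size. The libraries of the groups did not overlap for 33 of the 39 genes (84.6%) and for 73.4% of all genes. The share of large changes was thus that of all genes.

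**Figure D1:**
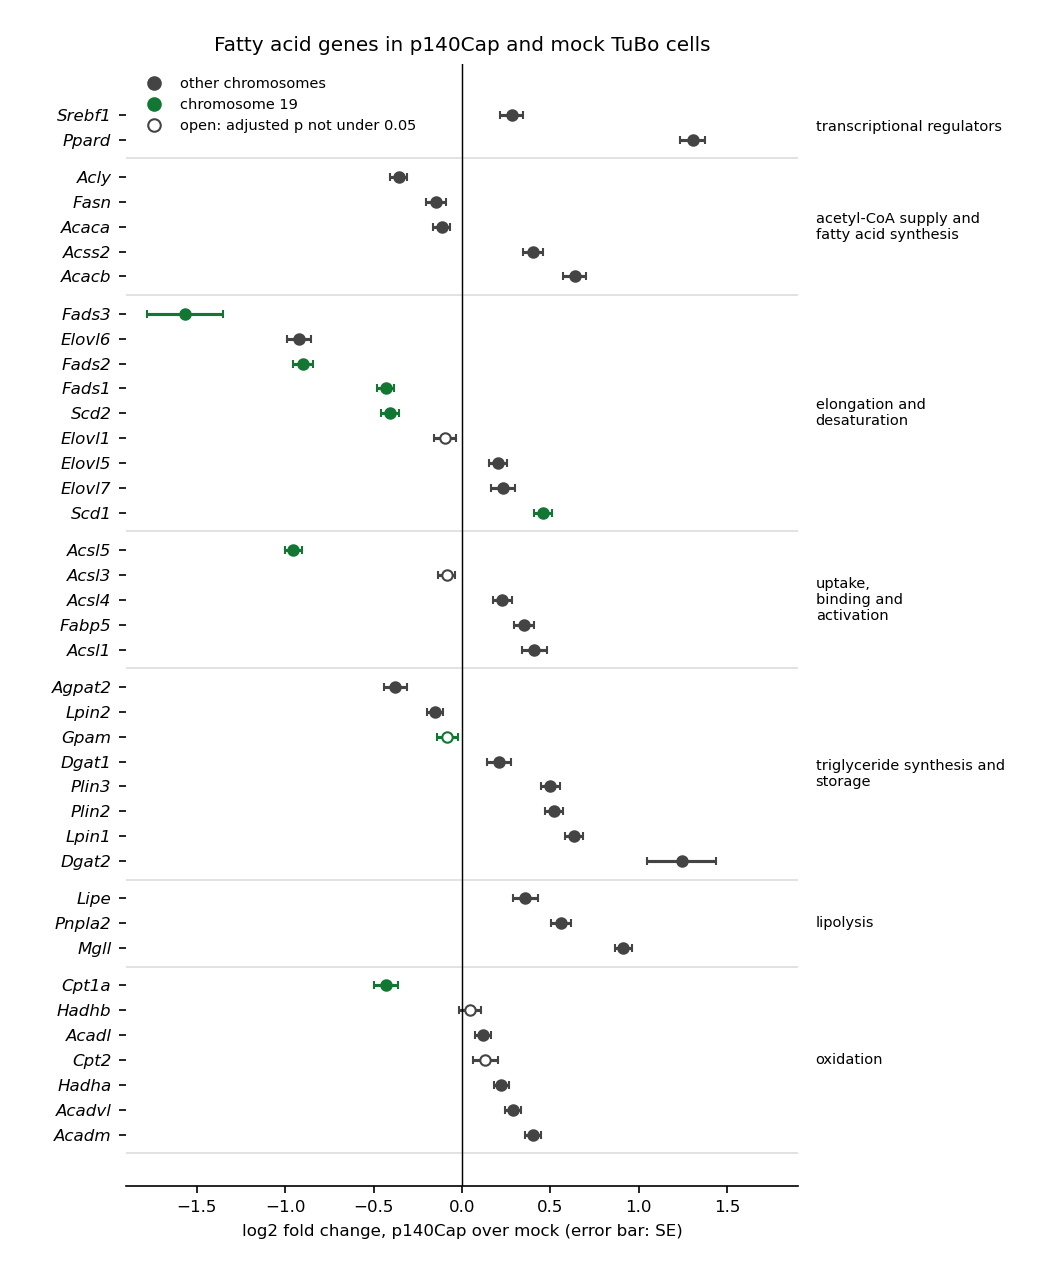
Log2 fold change (p140Cap minus mock, horizontal axis) of the 39 tested genes, ordered by role, with bars for the SE. Open points are the 5 genes that did not pass the test and green points are the 8 genes on chromosome 19, 7 of which lie below 0.

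Counts of higher and lower genes differed between roles. Of the 14 genes of synthesis, elongation and desaturation, 5 were higher and 8 were lower, with a median of -0.13. Of the 11 genes of triglyceride synthesis, storage and lipolysis, 8 were higher and 2 were lower, with a median of 0.50. Of the 7 genes of oxidation, 4 were higher and 1 was lower, with a median of 0.13, and no difference reached 0.5 log2 units. Of the 5 tested genes of uptake, binding and activation, 3 were higher and 1 was lower, with a median of 0.23. The difference between roles was not tested.

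**Figure D2:**
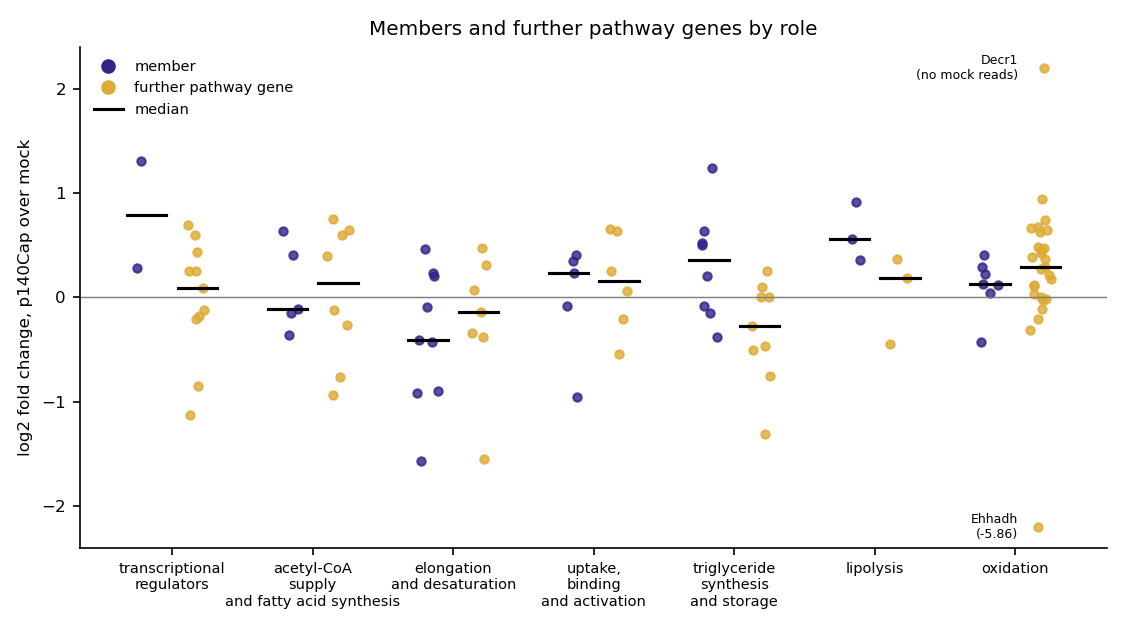
Log2 fold change (p140Cap minus mock) of the tested genes by role, each point a gene, with the 42 chosen genes beside the further genes of the same pathways and lines for the medians. Points of Decr1 and Ehhadh lie beyond the axis and are drawn at its edge. The chosen genes of lipolysis all lie above 0, whereas those of elongation and desaturation are spread from -1.57 to 0.46.

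Promoters are shown, as sequence context, for the 5 matched genes with the largest log2 differences other than Fads3, which had few reads, together with that of Hadha, which overlaps most of the window of Hadhb on the other strand. RefSeq promoter sequences of GRCm38.p6 were matched by symbol for 36 of the 42 genes, with 47 start sites. Scd1, Scd2, Fads1, Dgat1, Dgat2 and Fabp5 were not matched. Each sequence holds the 250 bases before the start site, written from 5′ to 3′ on the strand of the gene, with motif letters in capitals. The windows are chr17:28232504-28232753 (plus strand) for Ppard, chr6:88724162-88724411 (plus strand) for the first of 2 start sites of Mgll, chr3:129532136-129532385 (plus strand) for Elovl6, chr19:55253119-55253368 (plus strand) for Acsl5, chr19:10101504-10101753 (minus strand) for Fads2 and chr5:30154981-30155230 (minus strand) for Hadha.
Ppard: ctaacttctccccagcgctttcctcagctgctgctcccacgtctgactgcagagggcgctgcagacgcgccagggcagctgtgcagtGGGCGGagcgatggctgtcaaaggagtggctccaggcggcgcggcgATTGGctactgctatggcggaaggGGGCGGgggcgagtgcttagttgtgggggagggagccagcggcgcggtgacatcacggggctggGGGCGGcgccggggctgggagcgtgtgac
Mgll: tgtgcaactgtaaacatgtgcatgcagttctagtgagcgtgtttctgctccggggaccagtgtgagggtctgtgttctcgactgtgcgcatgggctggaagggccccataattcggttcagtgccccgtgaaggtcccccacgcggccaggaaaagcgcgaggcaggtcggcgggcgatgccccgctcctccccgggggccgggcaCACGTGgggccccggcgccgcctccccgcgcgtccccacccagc
Elovl6: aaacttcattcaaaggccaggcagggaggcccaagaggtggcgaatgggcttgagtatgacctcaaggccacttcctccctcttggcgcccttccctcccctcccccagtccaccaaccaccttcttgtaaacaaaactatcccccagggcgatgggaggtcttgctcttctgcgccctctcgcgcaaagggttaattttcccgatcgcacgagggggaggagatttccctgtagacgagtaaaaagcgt
Acsl5: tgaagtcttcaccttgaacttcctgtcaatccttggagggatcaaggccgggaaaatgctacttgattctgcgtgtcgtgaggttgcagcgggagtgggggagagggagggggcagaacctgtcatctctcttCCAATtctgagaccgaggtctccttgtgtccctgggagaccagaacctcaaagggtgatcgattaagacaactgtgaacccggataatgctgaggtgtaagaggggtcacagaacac
Fads2: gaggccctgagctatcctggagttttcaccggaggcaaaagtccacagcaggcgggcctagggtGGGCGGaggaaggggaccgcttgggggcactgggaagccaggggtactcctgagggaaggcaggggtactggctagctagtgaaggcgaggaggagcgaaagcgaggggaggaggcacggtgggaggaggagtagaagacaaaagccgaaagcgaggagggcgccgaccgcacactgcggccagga
Hadha: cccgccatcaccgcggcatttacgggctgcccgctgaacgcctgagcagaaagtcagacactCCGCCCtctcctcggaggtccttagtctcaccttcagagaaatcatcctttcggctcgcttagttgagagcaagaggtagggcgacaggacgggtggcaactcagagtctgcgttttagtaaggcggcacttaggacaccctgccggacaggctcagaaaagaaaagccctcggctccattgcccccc
The motifs searched on both strands were the sterol regulatory element TCACNCCAC, the CCAAT box CCAAT, the GC box GGGCGG, the E-box CACGTG and the direct repeat bound by PPAR receptors, and none of these contains another. Ppard held 3 GC boxes and 1 CCAAT box, Mgll held 1 E-box, Acsl5 held 1 CCAAT box, Fads2 and Hadha each held 1 GC box, the Hadhb window (chr5:30155003-30155252, plus strand, not printed) held 2 GC boxes, and the Elovl6 window held no match to these letters.

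Over all windows, GC boxes were found in 30 of the 47 promoters of the set (63.8%) and in 32.7% of all 32851 RefSeq promoters. CCAAT boxes were found in 20 promoters (42.6%) and in 33.8% of all promoters. E-boxes were found in 4 promoters, of Elovl5, Lipe, Lpin2 and Mgll (8.51%), and in 6.02% of all promoters. The sterol regulatory element was found in 1 promoter, of Acsl1 (2.13%), and in 1.05% of all promoters. The direct repeat was found in no promoter of the set and in 0.0335% of all promoters. All promoters include those of genes with no reads in these cells, and a match of letters is a description and not a bound site.

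Among the transcriptional regulators, Ppard and Srebf1 were higher in p140Cap cells, and Ppara and Pparg had almost no reads. Ppard encodes the PPAR receptor found in most tissues, a nuclear receptor that binds fatty acids and activates genes of their oxidation. It had 29.0, 25.6 and 31.4 CPM in the mock libraries and 69.1, 76.8 and 66.2 CPM in the p140Cap libraries. Every p140Cap library was above every mock library, and the level was 2.47-fold higher, with a log2 fold change of 1.30 ± 0.07 (SE, n = 3 per group) and an adjusted p of 1.29e-10 by edgeR. This was the largest rise among the 39 tested genes. Srebf1, a transcription factor that activates fatty acid synthesis genes, had 639, 576 and 672 CPM in mock and 712, 837 and 746 CPM in p140Cap libraries. Its groups did not overlap either, but the log2 fold change was smaller, 0.28 ± 0.06 (SE), with an adjusted p of 0.000929 by edgeR. Ppara, the main PPAR receptor of liver, had 1 read in the mock libraries together, and Pparg, the regulator of adipocyte differentiation, had 1 read in the p140Cap libraries together. With 147674047 mock and 44044506 p140Cap reads in all, a count of 0 allows up to 0.0200 CPM in mock and 0.0690 CPM in p140Cap cells, for counting error only. Any difference in Ppara or Pparg was not detectable at this depth.

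**Figure D3:**
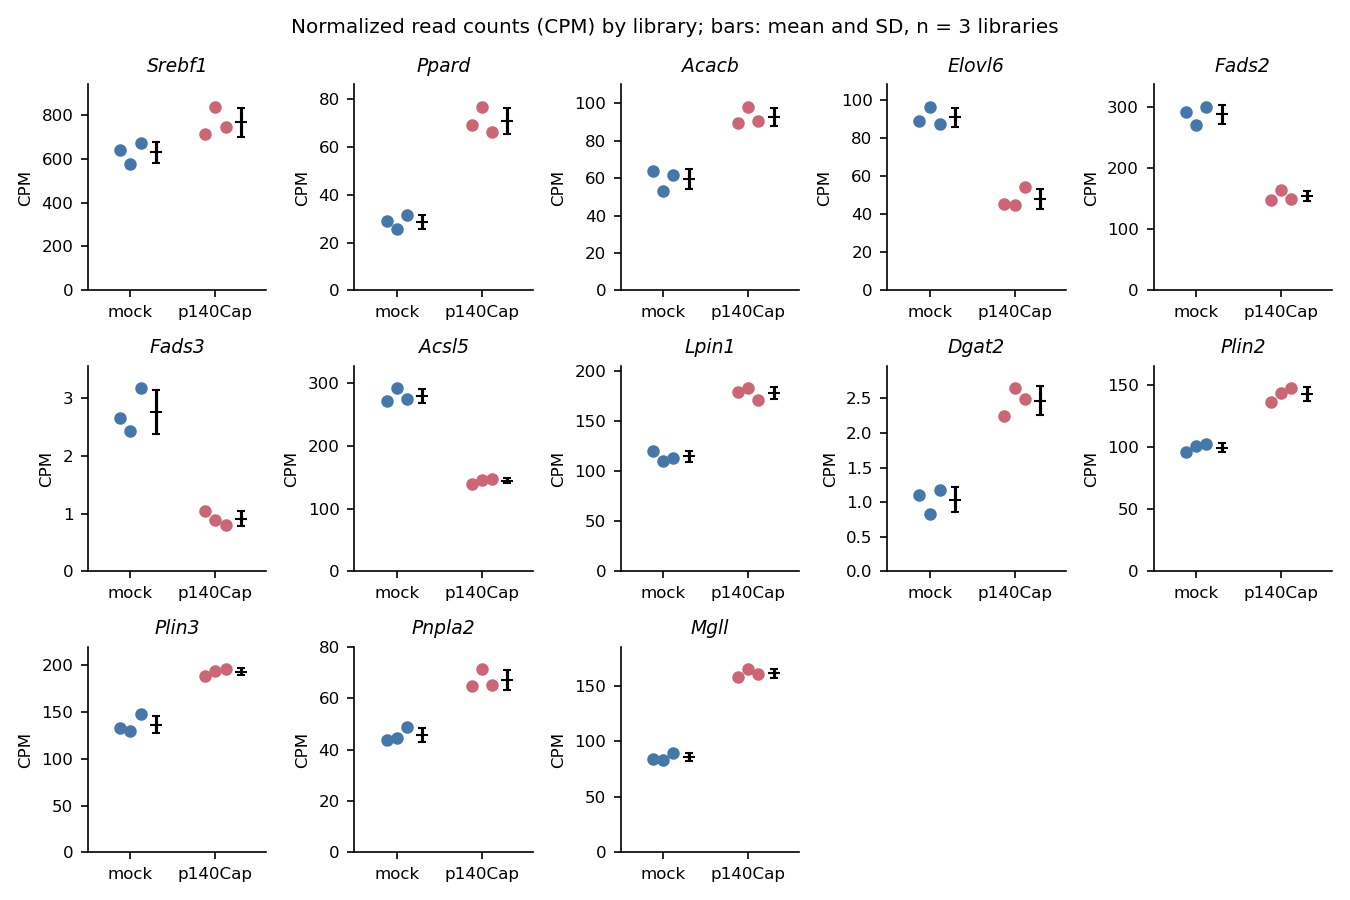
CPM (vertical axes, linear from 0) of Srebf1 and of the 12 genes called with a difference of at least 0.5 log2 units, with a point for each library and bars for the mean and SD of each group (n = 3). The groups do not overlap for any of the 13 genes, of which 12 were chosen for their difference, nor for 73.4% of all genes tested.

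Genes of acetyl-CoA supply and fatty acid synthesis moved in both directions, 2 higher and 3 lower. Acacb encodes the acetyl-CoA carboxylase of the mitochondrial surface, whose malonyl-CoA inhibits fatty acid entry into mitochondria. It had 63.9, 53.4 and 61.5 CPM in mock and 89.8, 98.4 and 90.5 CPM in p140Cap libraries, without overlap. Its log2 fold change was 0.64 ± 0.06 (SE), with an adjusted p of 1.84e-07 by edgeR. Acaca, the cytosolic carboxylase that commits acetyl-CoA to synthesis, fell from 247 to 228 CPM, a log2 fold change of -0.11 ± 0.05 (SE) with an adjusted p of 0.0423 by edgeR. This call was lost without mock replicate 1 (adjusted p = 0.209), p140Cap replicate 1 (0.101) or p140Cap replicate 3 (0.132). Of the 50-base words of Acaca transcripts, 52.6% are shared with another gene, the most of all 42 genes, so that its reads may be divided between copies.

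Acly and Acss2, which make cytosolic acetyl-CoA from different precursors, moved in opposite directions. Acly, which cleaves citrate, fell from 363, 336 and 344 CPM in mock to 265, 282 and 266 CPM in p140Cap libraries, a log2 fold change of -0.36 ± 0.05 (SE) with an adjusted p of 6.11e-06 by edgeR. Acss2, which activates acetate, rose from 66.0 ± 4.43 CPM (SD, n = 3) to 87.4 ± 1.87 CPM, a log2 fold change of 0.40 ± 0.06 (SE) with an adjusted p of 6.19e-06 by edgeR. Fasn, the fatty acid synthase, had 597, 540 and 592 CPM in mock and 492, 558 and 513 CPM in p140Cap libraries. The groups overlapped, and its log2 fold change of -0.15 ± 0.06 (SE) passed the test with an adjusted p of 0.0282 by edgeR. That call was lost without mock replicate 1 (adjusted p = 0.117), mock replicate 3 (0.0598), p140Cap replicate 1 (0.161) or p140Cap replicate 3 (0.0826). The ratio of Acaca to Acacb expression per kilobase of exon was 2.30 ± 0.178 (SD, n = 3) in mock and 1.36 ± 0.0493 in p140Cap cells. The exact permutation test of this ratio, two-sided, gave p = 0.1, which is the smallest value that 3 against 3 libraries allow. With the length of the canonical transcript in place of all exons, Acaca had 25.9 and Acacb 6.57 CPM per kilobase in mock cells. In p140Cap cells these levels were 24.0 and 10.2, so the size of the ratio depended on the length used.

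Elongation and desaturation held 3 of the 4 falls of at least 0.5 log2 units. Of its 9 genes, 3 were higher and 5 were lower, with a median log2 fold change of -0.41. Of these genes 5 lie on chromosome 19, which was lower as a whole, and of the 4 genes elsewhere 2 were higher and 1 was lower, with a median of 0.05. Elovl6, which elongates palmitate, had 89.1, 96.6 and 87.3 CPM in mock and 45.3, 44.8 and 54.4 CPM in p140Cap libraries. All p140Cap libraries lay far below the mock libraries, with a log2 fold change of -0.92 ± 0.07 (SE) and an adjusted p of 4.03e-09 by edgeR. Fads2, the first desaturase in the making of polyunsaturated fatty acids, had 291, 270 and 300 CPM in mock and 148, 164 and 150 CPM in p140Cap libraries. Its groups did not overlap, and its log2 fold change was -0.90 ± 0.05 (SE), with an adjusted p of 4.29e-10 by edgeR. Fads1, which acts later in the same pathway, fell from 195 ± 4.38 to 144 ± 3.41 CPM (SD, n = 3), a log2 fold change of -0.43 ± 0.05 (SE) with an adjusted p of 3.1e-07 by edgeR. Fads3, a related desaturase, had few reads, 203, 97 and 106 in mock and 16, 13 and 11 in p140Cap libraries. These correspond to 2.65, 2.44 and 3.18 CPM and to 1.05, 0.885 and 0.808 CPM, without overlap. The mock level was 2.95 times the p140Cap level on summed reads (95% exact interval 2.13 to 4.19, counting error only), and the log2 fold change was -1.57 ± 0.22 (SE), with an adjusted p of 6.12e-06 by edgeR.

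The remaining elongases had small differences. Elovl5, which elongates polyunsaturated fatty acids, rose from 211 to 243 CPM, a log2 fold change of 0.20 with an adjusted p of 0.00129 by edgeR. Elovl7 rose from 55.6 to 65.2 CPM with overlapping groups, a log2 fold change of 0.23 with an adjusted p of 0.00535 by edgeR, and without p140Cap replicate 3 the adjusted p was 0.0589. Elovl1, which acts on very long saturated chains, had 35.1 CPM in mock and 32.8 CPM in p140Cap cells with an adjusted p of 0.177 by edgeR, and 0.0454 without p140Cap replicate 2. The ratio of Elovl5 to Elovl6 per kilobase was 3.46 ± 0.0699 (SD, n = 3) in mock and 7.57 ± 0.603 in p140Cap cells, with an exact permutation p of 0.1.

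Scd1 and Scd2, which introduce a double bond into saturated fatty acids and make oleate and palmitoleate, moved in opposite directions. Scd1 had 2869, 2756 and 2628 CPM in mock and 3788, 3940 and 3617 CPM in p140Cap libraries, a log2 fold change of 0.46 ± 0.05 (SE) with an adjusted p of 4.37e-07 by edgeR. Scd2 had 4993, 4734 and 4506 CPM in mock and 3570, 3731 and 3445 CPM in p140Cap libraries, a log2 fold change of -0.41 ± 0.05 (SE) with an adjusted p of 2.2e-06 by edgeR. Neither gene overlapped between groups. Per kilobase of exon, the ratio of Scd1 to Scd2 was 0.606 ± 0.00494 (SD, n = 3) in mock and 1.10 ± 0.00590 in p140Cap cells, so that Scd2 was the higher in each mock library and Scd1 the higher in each p140Cap library. The difference was 1.82-fold with an exact permutation p of 0.1, the smallest possible, and 7 such pairs of paralogs or partners were compared, which left the Benjamini-Hochberg adjusted p at 0.1. With the length of the canonical transcript in place of all exons, the ratios were 0.630 and 1.15. The sum of both genes per kilobase was 1012 ± 49.0 (SD, n = 3) in mock and 1001 ± 41.5 in p140Cap cells, and the groups overlapped. The pair made up 87.0 to 90.0% of the summed expression per kilobase of the 9 elongation and desaturation genes in the 6 libraries, and that sum also overlapped between groups, 1155 ± 48.2 in mock and 1116 ± 40.6 in p140Cap cells.

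**Figure D4:**
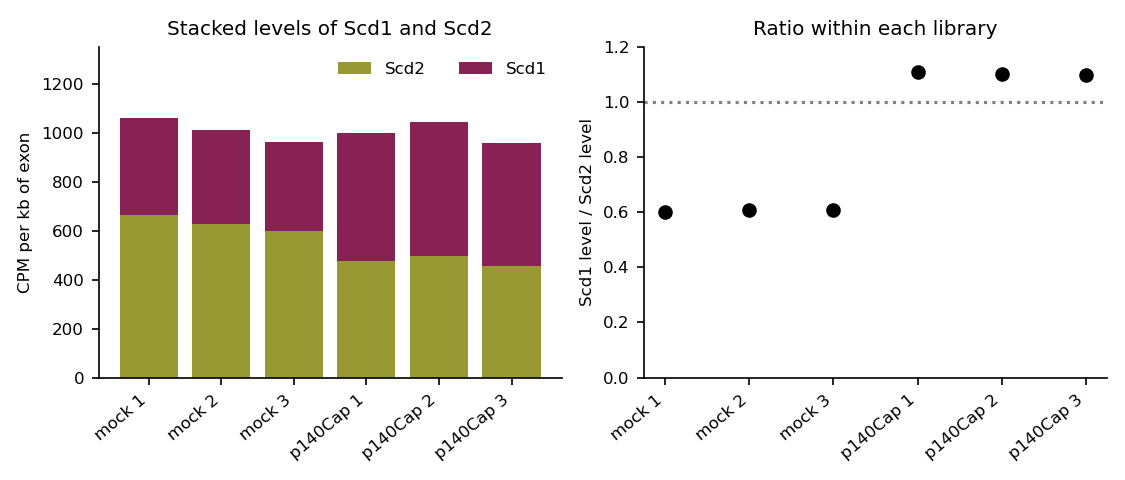
Stacked bars show CPM per kilobase of exon of Scd2 and Scd1 in each mock and p140Cap library, and points show the ratio of Scd1 to Scd2, with a dotted line where both are equal. The ratio lies at 0.600 to 0.609 in mock and at 1.10 to 1.11 in p140Cap libraries.

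Acsl5 stood apart among the genes of uptake, binding and activation. The Acsl enzymes join free fatty acids to coenzyme A. Acsl5 had 272, 292 and 274 CPM in mock and 139, 146 and 148 CPM in p140Cap libraries. The groups were far apart, with a log2 fold change of -0.95 ± 0.05 (SE) and an adjusted p of 6.28e-11 by edgeR. Acsl4, which prefers arachidonate, rose from 776 ± 45.7 to 909 ± 20.5 CPM (SD, n = 3), a log2 fold change of 0.23 ± 0.05 (SE) with an adjusted p of 0.000756 by edgeR. Acsl1 rose from 14.4 to 19.1 CPM, a log2 fold change of 0.41 with an adjusted p of 8.68e-05 by edgeR. Acsl3, an enzyme of lipid droplet growth, had 231 CPM in mock and 217 CPM in p140Cap cells. Its groups did not overlap, but the adjusted p was 0.11 by edgeR, and 0.035 without mock replicate 3. The ratio of Acsl4 to Acsl5 per kilobase was 2.78 ± 0.135 (SD, n = 3) in mock and 6.30 ± 0.309 in p140Cap cells, with an exact permutation p of 0.1.

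Fabp5, the epidermal fatty acid binding protein, rose from 604 ± 54.4 to 771 ± 21.4 CPM (SD, n = 3), a log2 fold change of 0.35 ± 0.06 (SE) with an adjusted p of 4.8e-05 by edgeR. Cd36, a surface receptor for fatty acid uptake, had 1 read in the mock libraries together and none in the p140Cap libraries, and any difference was not detectable at this depth. By expression per kilobase of exon, the 5 highest of the 42 genes in mock cells were Scd2 (630), Scd1 (382), Fabp5 (165), Acsl4 (130) and Srebf1 (107). The same 5 led with canonical transcript lengths, at 870 for Scd2, 548 for Scd1, 609 for Fabp5, 144 for Acsl4 and 145 for Srebf1, so the order of neighbours depends on the length used.

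Of the 8 genes of triglyceride synthesis and storage, 5 were higher and 2 were lower, whereas of 9 tested further genes of this role 1 was higher and 5 were lower. Lpin1, a phosphatidate phosphatase that makes diacylglycerol, had 121, 111 and 113 CPM in mock and 179, 184 and 172 CPM in p140Cap libraries. The groups did not overlap, and the log2 fold change was 0.63 ± 0.05 (SE) with an adjusted p of 8.16e-09 by edgeR. Its paralog Lpin2 fell slightly, from 92.9 to 83.6 CPM, a log2 fold change of -0.15 with an adjusted p of 0.00848 by edgeR. The ratio of Lpin1 to Lpin2 per kilobase was thus 1.33 ± 0.0639 (SD, n = 3) in mock and 2.30 ± 0.124 in p140Cap cells, with an exact permutation p of 0.1. Dgat2, which joins the last acyl chain to diacylglycerol, had few reads, 84, 33 and 39 in mock and 34, 39 and 34 in p140Cap libraries. These were 1.10, 0.830 and 1.17 CPM in mock and 2.24, 2.66 and 2.50 CPM in p140Cap libraries, without overlap. Its log2 fold change was 1.24 ± 0.20 (SE), with an adjusted p of 2.93e-05 by edgeR, and on summed reads the level was 2.36 times that in mock cells (95% exact interval 1.83 to 3.04). Dgat1, the other enzyme of this step and the more abundant by CPM, rose from 24.2 to 27.8 CPM with an adjusted p of 0.0112 by edgeR, a call lost without mock replicate 1 (0.0575) or p140Cap replicate 1 (0.0851).

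Both lipid droplet coat genes of the set rose. Plin2 had 95.8, 101 and 102 CPM in mock and 137, 144 and 148 CPM in p140Cap libraries. Its log2 fold change was 0.52 ± 0.05 (SE), with an adjusted p of 7.74e-08 by edgeR. Plin3 had 133, 130 and 148 CPM in mock and 189, 194 and 197 CPM in p140Cap libraries. Neither gene overlapped between groups, and the log2 fold change of Plin3 was 0.50 ± 0.05 (SE), with an adjusted p of 2.88e-07 by edgeR. Neither gene of the earlier steps of glycerolipid synthesis was called higher. Agpat2, which makes phosphatidate, fell from 39.3 ± 2.00 to 30.2 ± 1.49 CPM (SD, n = 3), a log2 fold change of -0.38 ± 0.06 (SE) with an adjusted p of 4.72e-05 by edgeR. Gpam, the mitochondrial acyltransferase of the first step, had 34.0 CPM in mock and 32.1 CPM in p140Cap cells, with overlapping groups and an adjusted p of 0.224 by edgeR.

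The 3 genes of lipolysis in the set, which act in sequence to release fatty acids from triglyceride, were higher in p140Cap cells, whereas of 3 tested further genes of this role 2 were higher and 1 was lower. Pnpla2, which encodes adipose triglyceride lipase, had 43.9, 44.6 and 48.6 CPM in mock and 65.0, 71.6 and 65.0 CPM in p140Cap libraries. Its log2 fold change was 0.56 ± 0.06 (SE), with an adjusted p of 2.44e-07 by edgeR. Lipe, the hormone-sensitive lipase, had 29.0, 28.7 and 30.9 CPM in mock and 38.5, 41.3 and 33.4 CPM in p140Cap libraries. It showed the smallest gap between groups of the lipases, with a log2 fold change of 0.36 ± 0.07 (SE) and an adjusted p of 0.000245 by edgeR. Mgll, which cleaves the last acyl chain from monoacylglycerol, had 83.9, 83.2 and 89.8 CPM in mock and 157, 165 and 161 CPM in p140Cap libraries. The level was 1.88-fold higher, a log2 fold change of 0.91 ± 0.05 (SE) with an adjusted p of 7.87e-11 by edgeR. Expression per kilobase summed over the 3 genes was 30.4 ± 1.43 (SD, n = 3) in mock and 49.5 ± 2.08 in p140Cap cells, and the groups did not overlap.

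Of the 7 genes of mitochondrial β-oxidation, 4 rose by up to 0.40 log2 units, while Cpt1a, the carnitine acyltransferase that admits fatty acids to mitochondria, fell. Cpt1a had 28.4, 31.5 and 28.6 CPM in mock and 22.1, 21.9 and 21.7 CPM in p140Cap libraries, without overlap. Its log2 fold change was -0.43 ± 0.07 (SE), with an adjusted p of 2.4e-05 by edgeR. Cpt2, its partner in the inner membrane, had 18.6 CPM in mock and 20.2 CPM in p140Cap cells, with overlapping groups and an adjusted p of 0.111 by edgeR. The 3 acyl-CoA dehydrogenases of the set, which carry out the first oxidation step, were called higher. Acadm, for medium chains, rose from 68.7 ± 1.28 to 90.8 ± 1.07 CPM (SD, n = 3), a log2 fold change of 0.40 ± 0.05 (SE) with an adjusted p of 9.26e-07 by edgeR. Acadvl, for very long chains, rose from 87.3 to 107 CPM, a log2 fold change of 0.29 with an adjusted p of 3.42e-05 by edgeR. Acadl, for long chains, rose from 191 to 207 CPM, a log2 fold change of 0.12 with an adjusted p of 0.0341 by edgeR. That call was lost without mock replicate 1 (adjusted p = 0.13), mock replicate 3 (0.0936), p140Cap replicate 1 (0.142) or p140Cap replicate 3 (0.119), and also without the filter on low counts (0.158) or with TMM factors from genes off chromosome 19 (0.056).

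Hadha and Hadhb encode the subunits of the trifunctional protein of β-oxidation. By RefSeq positions they lie head to head, 272 bases apart, with the printed Hadha window between them. In the GENCODE annotation, which was used for lengths, they overlap on opposite strands. The strand setting of the counting is not stated, so reads of that overlap may be divided between them. Hadha rose from 206 to 240 CPM, a log2 fold change of 0.22 ± 0.04 (SE) with an adjusted p of 0.000244 by edgeR. Hadhb had 117 CPM in mock and 121 CPM in p140Cap cells, a log2 fold change of 0.05 ± 0.06 (SE) with overlapping groups and an adjusted p of 0.511 by edgeR. The ratio of Hadha to Hadhb per kilobase of exon was 2.92 ± 0.215 (SD, n = 3) in mock and 3.30 ± 0.237 in p140Cap cells, with an exact permutation p of 0.1. With canonical transcript lengths, Hadha had 51.0 and Hadhb 57.4 CPM per kilobase in mock cells. In p140Cap cells these levels were 59.5 and 59.3, so which of them was the higher depended on the length used. Of the 50-base words of Hadhb transcripts, 17.4% are shared with other genes, among them the pseudogene Hadhb-ps.

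Several of the genes that fell lie on chromosome 19, which was lower as a whole in p140Cap cells. Of its 424 tested genes, 276 (65.1%) were lower and 51 were higher, with a median log2 fold change of -0.34, compared with 0.01 on the other chromosomes. The set has 8 genes there, of which 6 were lower, Scd1 was higher and Gpam did not pass the test. By RefSeq positions on GRCm38.p6, Fads1 (chr19:10182877-10196874), Fads2 (chr19:10062765-10101503) and Fads3 (chr19:10040855-10060113) form a cluster. Scd1 (chr19:44394450-44407709) and Scd2 (chr19:44293676-44306864) are 87.6 kb apart. Acsl5 (chr19:55251861-55296628) and Gpam (chr19:55067635-55127319) are 124.5 kb apart, and Cpt1a is at chr19:3322326-3385735. These neighbours differed in their log2 fold changes, with Scd1 above 0 beside Scd2 below 0, and Acsl5 at -0.95 beside Gpam at -0.08.

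Read against chromosome 19 itself, 3.77% of its genes had a lower log2 fold change than Fads3, 13.2% than Acsl5 and 14.6% than Fads2. The values for Fads1, Cpt1a and Scd2 were 41.5%, 42.2% and 45.5%, so that these 3 genes lay near the middle of the chromosome. Gpam, at 73.6%, and Scd1, at 91.7%, lay toward its upper end. Among the 31 tested genes of the set on other chromosomes, 21 were higher and 6 were lower, with a median of 0.23. Without chromosome 19, synthesis, elongation and desaturation kept 4 higher and 4 lower genes with a median of -0.10. For elongation and desaturation alone, the median turned from -0.41 over 9 genes to 0.05 over the 4 genes on other chromosomes, and Elovl6 was the only one of these called lower. No gene of oxidation or of uptake, binding and activation on the other chromosomes was called lower. The genes of triglyceride synthesis, storage and lipolysis kept 8 higher and 2 lower genes with a median of 0.51. The number of copies of chromosome 19 in either group was not measured, and the part of the chromosome in these differences was not tested.

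**Figure D5:**
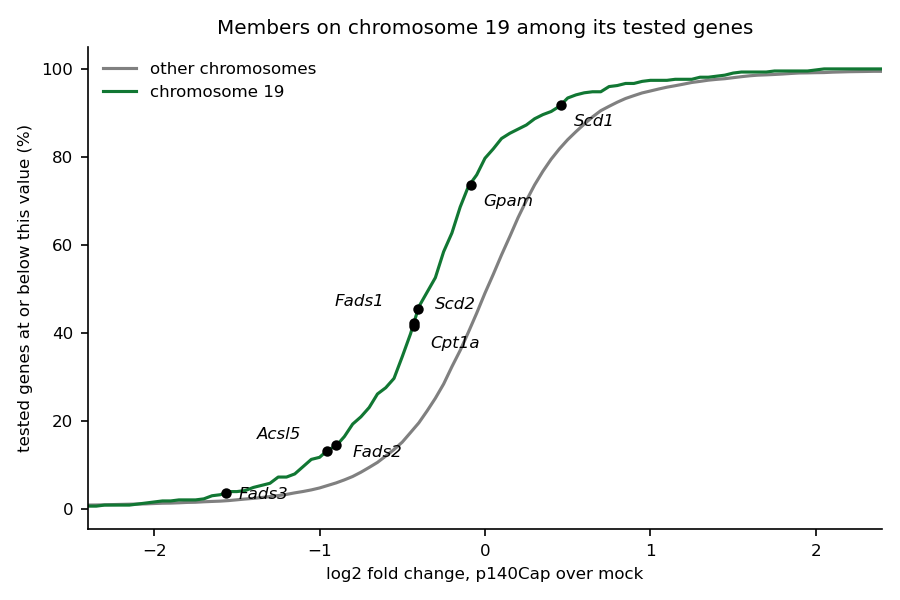
Log2 fold change (p140Cap minus mock) of tested genes as a cumulative share, with chromosome 19 and the other chromosomes as separate curves and the 8 genes of the set on chromosome 19 marked. The chromosome 19 curve is shifted to lower values, with 79.7% of its genes below 0, and Fads3, Acsl5 and Fads2 lie in its lower part.

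A further list of 98 genes of the same pathways was read in the same fit. Of these, 71 had enough reads for a test, and 32 were higher and 22 were lower, with a median log2 fold change of 0.11. Together 76.1% were called, beside 71.1% of all genes, so the share was near that background. Oxidation had 16 higher and 3 lower of 27 tested genes, with a median of 0.29. Elongation and desaturation had 1 higher and 4 lower of 7, with a median of -0.14, and acetyl-CoA supply and fatty acid synthesis had 4 higher and 3 lower of 8. Triglyceride synthesis and storage had 1 higher and 5 lower of 9, with a median of -0.27, beside 5 higher and 2 lower of the 8 genes of the set. Lipolysis had 2 higher and 1 lower of 3, uptake, binding and activation had 3 higher and 2 lower of 6, and regulators had 5 higher and 4 lower of 11.

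Log2 differences of at least 1 were found for 5 of these genes, all with few reads. Decr1, the reductase that lets β-oxidation pass unsaturated bonds, was not read in any mock library (0, 0 and 0) and was covered by 46, 41 and 48 reads in p140Cap libraries. Against a floor of 3 reads over the mock group, its level was at least 155-fold higher in p140Cap cells. Ehhadh, the bifunctional enzyme of peroxisomal β-oxidation, showed the opposite pattern, with 410, 222 and 196 reads in mock and 0, 0 and 4 in p140Cap libraries. Its mock level was 60.1 times the p140Cap level (95% exact interval 23.4 to 221), with an adjusted p of 7.06e-10 by edgeR, and all its p140Cap reads came from replicate 3. Nr1h3, the liver X receptor alpha that activates Srebf1, had 149, 62 and 69 reads in mock and 18, 15 and 4 in p140Cap libraries, a log2 fold change of -1.13 ± 0.29 (SE) with an adjusted p of 0.00246 by edgeR, and -0.76 without p140Cap replicate 3. Hacd1, a dehydratase of fatty acid elongation, had 146, 59 and 61 reads in mock and 15, 8 and 3 in p140Cap libraries, a log2 fold change of -1.56 ± 0.31 (SE) with an adjusted p of 0.000307 by edgeR, and -1.19 to -2.17 without p140Cap replicate 3 or 1. Gpat3, an acyltransferase of the first step of triglyceride synthesis listed as Agpat9, had 156, 73 and 71 reads in mock and 18, 9 and 8 in p140Cap libraries, a log2 fold change of -1.31 ± 0.25 (SE) with an adjusted p of 0.000171 by edgeR.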

How the data were processed

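RNA-Seq counts of 3 mock and 3 p140Cap libraries of TuBo cells were analysed, grouped by the deposited labels. The authors deposited counts, as whole numbers of reads for 21960 genes, without normalization and with replicates kept apart. The submitters' processing notes name STAR 2.5, RSEM 0.1.1 and the mm10 build, whereas the paper names GRCm39. RSEM gives estimated counts, so the whole numbers may be rounded. Neither the annotation release nor the strand setting of the counting is stated in the sources used here, and 37 of the 42 genes are overlapped by an annotated gene on either strand.

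The 42 genes and the other lists were chosen with earlier results of these data known. Counts were analysed in R 4.3.3 with edgeR 4.0.16. After TMM normalization and filterByExpr, 11800 genes remained, and the quasi-likelihood test compared the groups with no covariate, at a Benjamini-Hochberg adjusted p of 0.05. The common coefficient of biological variation was 4.57%. Genes were matched to GENCODE (GRCm39) by Ensembl identifier for chromosomes, lengths and shared 50-base words (98.6% matched), and positions and promoters were taken from RefSeq (GRCm38.p6). Intervals are 95% exact binomial intervals on summed reads and cover counting error only. Pairs of libraries of the same group differed by more than sampling noise (mean chi-square 1.75 to 10.7), and the fit was tested on simulated data.

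Values per library were given for called genes with a log2 difference of at least 0.5, for regulators and for genes with too few reads, and also for paralogs and partners that were compared and for some other genes. Further genes were named at a log2 difference of at least 1. Alternatives were DESeq2 1.42.0, limma-voom (limma 3.58.1), RLE factors, TMM factors from genes off chromosome 19, no filter, at least 10 reads in every library, thinning to the smallest library, the replicate number as a block, leaving out each library, and leaving out the genes of chromosome 19. Canonical transcript length was an alternative added after seeing the data.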

Additional observations from a re-analysis of the deposited data

How the results depend on the processing

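Of the 34 genes of the set that passed the test, 29 kept their call and direction under all 14 alternatives that were fitted, and Acaca, Fasn, Elovl7, Dgat1 and Acadl lost it under some. Among the 39 tested genes, only Hadhb, which did not pass the test, turned in direction, with a range of -0.0055 (without mock replicate 3) to 0.10 over the settings that leave out a library. Leaving out each library gave 20 to 22 higher and 10 to 13 lower genes of the set, 3882 to 4082 higher and 3951 to 4171 lower genes among all tested, a median of 0.18 to 0.26 for uptake and activation, and 1 to 2 lower genes in that role (2 without mock replicate 3, where Acsl3 was called). Without the filter on low counts the median of uptake and activation was 0.040. Without the genes on chromosome 19, 4 genes of synthesis were lower, 0 of uptake and activation and 0 of oxidation, with medians of 0.29 for uptake and activation and 0.18 for oxidation. With canonical transcript lengths the ratio of Scd1 to Scd2 was 0.630 in mock and 1.15 in p140Cap cells. The sizes of the other ratios per kilobase also depend on the length used, while their fold change between the groups does not. The unfiltered fit also holds Cd36, and the settings without chromosome 19 hold fewer genes.

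Same-numbered libraries did not deviate together (correlations of -0.03, -0.11 and -0.06), so the numbers were not taken as a pairing. With the replicate number as a block, 21 genes of the set were higher and 10 were lower, and Acaca (adjusted p = 0.0747), Fasn (0.0623) and Acadl (0.0729) did not pass the test. Among all genes, 3980 were higher and 4054 lower with the block.

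Depth limits the genes with few reads, Fads3, Dgat2, Nr1h3, Hacd1 and Gpat3, most in the shallower p140Cap libraries.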
